A study of Mus musculus with 4 samples.

Results

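The fibroblast growth factor (FGF) and platelet-derived growth factor (PDGF) ligands and receptors were followed in CD45- cells sorted from B16-OVA melanomas. They were taken as all gene probes of the nCounter Mouse PanCancer Pathways panel whose names begin with Fgf or Pdgf. These were 32 of the 750 gene probes, 22 for ligands, 4 for the intracellular factors Fgf11 to Fgf14 and 6 for receptors. The mutant mice were Prdm1fl/flFoxP3YFP-Cre (KO), in which Cre driven from Foxp3 removes Prdm1, the gene for the transcription factor Blimp1, in regulatory T cells. Their controls were FoxP3YFP-Cre (WT) mice, which carry the same Cre and no floxed Prdm1, and both groups were on the C57BL/6 strain. All mice received B16-OVA cells under the skin at day 0, and NP-OVA in the abdomen with CFA at day 0 and with IFA at day 7, and tumors were of at most 1.5 cm3. There were 2 samples per group. The study's methods give an age range for its mice as a whole and state that both sexes were included, and age and sex are not labelled by sample. B16-OVA is 1 transplanted melanoma line that makes ovalbumin. The CD45- sort leaves out T cells, so that the cells measured are not those at which the deletion was aimed.

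FGFs are secreted or, for the Fgf11 to Fgf14 group, intracellular proteins. The secreted ones signal through the tyrosine kinase receptors Fgfr1 to Fgfr4 together with heparan sulfate, or, for the hormone-like members Fgf15, Fgf21 and Fgf23, with a Klotho protein. PDGF chains pair into dimers that bind the receptors Pdgfra and Pdgfrb, which are known from fibroblasts and pericytes. Both receptor families feed the Ras-MAPK and PI3 kinase pathways. In human melanoma FGF2 is known as a growth factor that the tumor cells can make themselves, and PDGF from tumor cells as a signal to the stroma.

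In this assay, RNA molecules are counted by barcoded probes without amplification. All gene probes together held between 626056 and 692284 counts per sample. A probe was taken as above background where its count exceeded the mean plus 2 SD of the 8 negative control probes of the same sample, which set limits of 21.9 and 19.9 counts in KO 1 and KO 2 and 17.5 and 17.9 in WT 1 and WT 2. Over the 446 genes above background in at least 2 samples, KO 2 stood apart, with log2 correlations of 0.975 to 0.981 with the other samples, while those among the other samples were 0.989 to 0.993. Prdm1 itself was read at 9 and 6 counts in the KO samples, against 9 and 9 in the WT samples, under the limits. The deletion was aimed at T cells, which the sort leaves out, so that Prdm1 in these cells does not check the genotype. Scaled to housekeeping probes, the melanocyte lineage gene Pax3 had counts of 1698 and 1576 in the KO samples, against 1979 and 1926 in the WT samples, Met and Kit lay above background in each sample, and Lef1, also on the fixed melanocyte list, in none.

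Most of the family was not detectable at this depth. Of the 32 members, 4 lay above background in at least 2 samples, or 12.5%, while the same rule held for 59.5% of all gene probes. The platelet-derived chain Pdgfa, the receptor Pdgfrb and the ligand Fgf1 were above background in all 4 samples. Fgf21 was above it in the WT samples alone, and Fgf5 in WT 2 alone. The other 27 members, 18 ligands, the 4 intracellular factors and 5 receptors, were above background in no sample, with counts between 1 and 19. By family, 15 of 18 FGF ligands, 4 of 4 intracellular FGFs, 4 of 4 FGF receptors, 3 of 4 PDGF ligands and 1 of 2 PDGF receptors were below background throughout. The 27 averaged 6.85 and 7.37 counts in the KO samples, beside negative control means of 8.38 and 7.25, and 7.30 and 6.56 counts in the WT samples, beside means of 9.13 and 7.88. Probes differ in how well they capture their target, so that counts are compared between samples and with background, and not between genes.

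**Figure D1:**
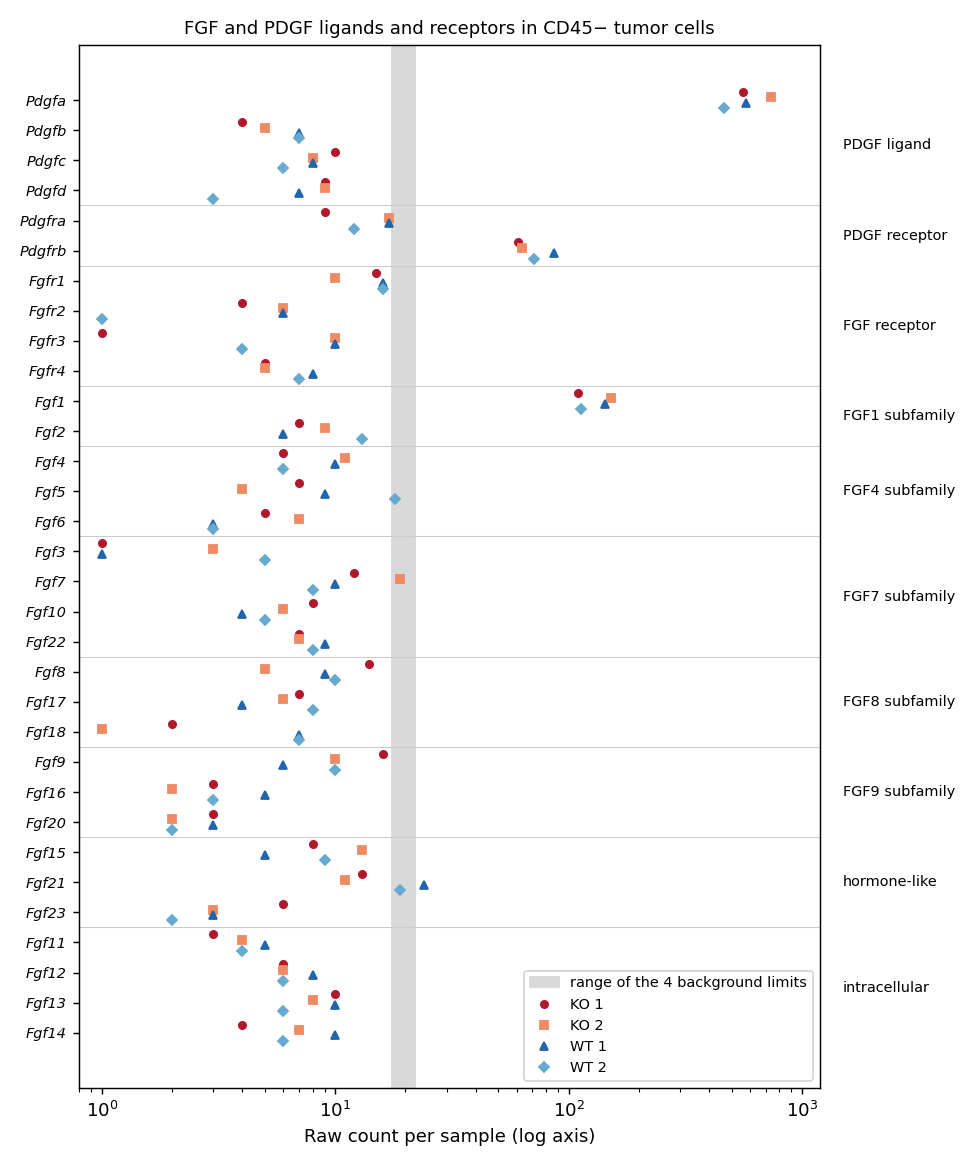
Raw counts (log axis) of the 32 FGF and PDGF members by sample, grouped by role, with the grey band marking the range of the 4 background limits (17.5 to 21.9 counts). Pdgfa, Pdgfrb and Fgf1 lie to the right of the band in all 4 samples, and 27 members exceed the limit of their own sample in none.

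The FGF receptors, through which all secreted FGFs act, were among the members below background. Fgfr1, the receptor most often found on mesenchymal cells, came closest, with 15 and 10 counts in the KO samples, against 16 and 16 in the WT samples. Fgfr2, which in its epithelial splice form answers Fgf7 and Fgf10, had 4 and 6 counts in the KO samples, against 6 and 1 in the WT samples. Fgfr3, a brake on bone growth, had 1 and 10 counts in the KO samples, against 10 and 4 in the WT samples. Fgfr4, the receptor for Fgf15 in the liver, had 5 and 5 counts in the KO samples, against 8 and 7 in the WT samples. The highest value among the FGF receptors was thus 16 counts, where the highest negative control probe of a sample was at 15 to 19. In WT 2 the 16 counts of Fgfr1 passed that sample's highest negative control, at 15, but not its limit of 17.9.

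The same held for nearly all FGF ligands. Fgf2, the basic fibroblast growth factor, had 7 and 9 counts in the KO samples, against 6 and 13 in the WT samples. Of the Fgf7 subfamily, which stromal cells make for epithelia, Fgf7 itself had 12 and 19 counts in the KO samples, against 10 and 8 in the WT samples, and KO 2 missed its limit by less than 1 count. The other members of that subfamily, Fgf3, Fgf10 and Fgf22, had between 1 and 9 counts. Fgf4 and Fgf6 had 3 to 11 counts, the Fgf8 subfamily (Fgf8, Fgf17, Fgf18) 1 to 14 and the Fgf9 subfamily (Fgf9, Fgf16, Fgf20) 2 to 16. The hormone-like Fgf15, the bile acid signal of the gut, and Fgf23, which governs phosphate, had 2 to 13 counts. The intracellular factors Fgf11, Fgf12, Fgf13 and Fgf14, which bind sodium channels and no receptor, had 3 to 10. Some of these genes are neighbors in the genome: in the RefSeq annotation of GRCm38.p6, Fgf3, Fgf4 and Fgf15 stand next to each other, as do Fgf6 and Fgf23. Each of these 5 genes was below background in every sample, as were 27 of all 32 members, so that nothing particular to neighbors is shown.

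Among the PDGF genes, Pdgfb, the chain best known from platelets and endothelium, had 4 and 5 counts in the KO samples, against 7 and 7 in the WT samples. The endothelial receptor genes Kdr and Flt1, the 2 measured of 8 endothelial markers, were below background too, with 1 to 11 counts over the 4 samples. Pdgfc had 10 and 8 counts in the KO samples, against 8 and 6 in the WT samples, and Pdgfd, like Pdgfc a chain that is activated by proteolysis, had 9 and 9 in the KO samples, against 7 and 3 in the WT samples. Pdgfra, the receptor for the PDGF-AA dimer and a marker of fibroblasts, had 9 and 17 counts in the KO samples, against 17 and 12 in the WT samples, and the 17 counts of WT 1 stood just under its limit of 17.5. Just above a limit was Fgf5, a regulator of the hair cycle, with 18 counts in WT 2 against a limit of 17.9. Fgf5 had 9 counts in WT 1 and 7 and 4 in KO 1 and KO 2. For the 27 members below background no difference between KO and WT samples could be read: in a fit without a filter their 95% intervals reached a median of 1.14 log2 units to either side. One of them, Fgf18, a growth factor of bone and lung, had 2 and 1 counts in the KO samples, against 7 and 7 in the WT samples, and in that fit a log2 fold change of -2.11 with an adjusted p of 0.378 (edgeR, unadjusted p = 0.00604), all of it under the mean of the negative controls.

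Differences between KO and WT samples were tested for the 4 members above background in at least 2 samples, with counts scaled to the 20 housekeeping probes. Scaled Pdgfa was higher in each KO than in each WT sample, Pdgfrb and Fgf21 were lower in both, and Fgf1 overlapped. None of the 4 passed the adjusted threshold, nor did any of the 446 tested genes (0%; edgeR's quasi-likelihood test, lowest adjusted p = 0.415). DESeq2 called 3 of the 446 genes and limma-voom 0, no member among them. At an unadjusted p under 0.05 there were 2 members, Pdgfa higher and Fgf21 lower, where 2.91% of all tested genes were higher and 4.48% lower at that limit, 7.4% in all. Fgf21 was tested through its WT counts alone, so that a lower KO value was built into its place in this count. In a fit without a filter its unadjusted p was 0.096 (edgeR). Both KO samples above both WT samples were seen in 11.2% of tested genes, and both below in 31.4%. These shares depended on the scaling: the 50 genes above and 140 below became 81 and 80 with TMM factors, and 104 and 34 with positive controls. Among the 4 members there were 1 and 2 such genes, too few to set apart from those shares, and Fgf21 was 1 of the 2. The median log2 fold change was -0.13 for the 4 members and -0.08 for all tested genes, given as a description, since Fgf21 was among the 4 through its WT counts alone. The lowest p open to an exact permutation of 2 against 2 samples is 0.333 (two-sided), and fewer cells of a type and less RNA per cell cannot be told apart in sorted bulk RNA.

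**Figure D2:**
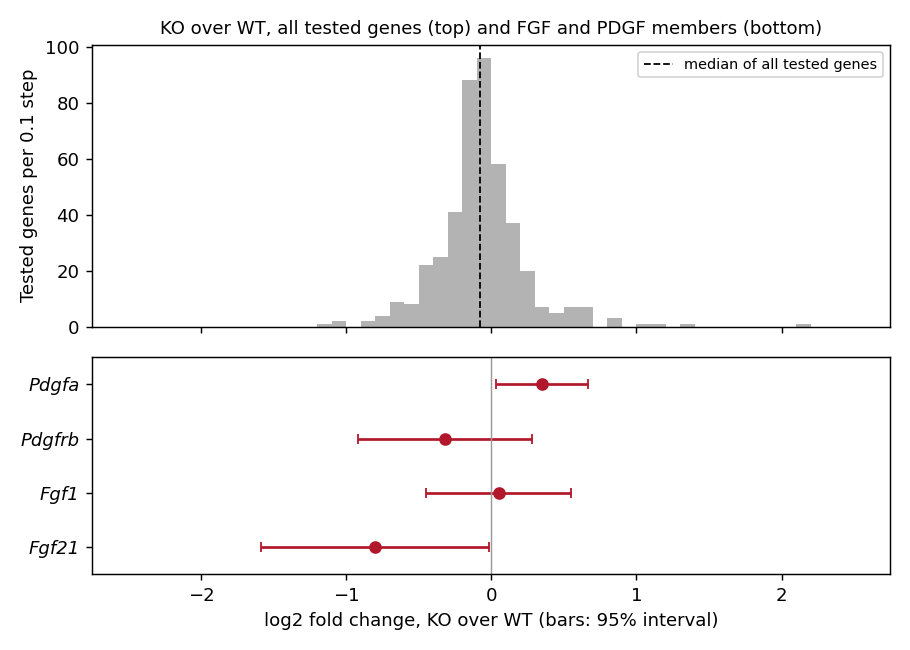
Top, number of the 446 tested genes in each step of 0.1 of the log2 fold change, KO over WT, with their median of -0.08 as a dashed line. Bottom, the 4 tested members with 95% intervals derived from the edgeR test: the intervals of Pdgfa and Fgf21 leave out 0 by a narrow margin, those of Pdgfrb and Fgf1 hold it. Fgf21 entered the test through its WT counts alone, so that a lower KO value was built into its selection.

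Pdgfa encodes the PDGF-A chain, a growth factor for mesenchymal and neural support cells. Its probe was directed at RefSeq transcript NM_008808.3 from base 805. It had 560 and 739 counts in the KO samples, against 574 and 462 in the WT samples, which after scaling were 599 and 703 in the KO samples, against 542 and 481 in the WT samples. Before scaling KO 1 lay between the WT samples, and after it both KO samples lay above both WT samples, with KO 2 the highest. Scaled counts averaged 651 ± 74.0 in the KO group, against 511 ± 43.5 in the WT group (SD, n = 2 each). This was 1.27-fold higher in KO samples, a log2 fold change of 0.35 ± 0.13 (SE; 95% interval 0.03 to 0.66), with an adjusted p of 0.569 by edgeR across all tested genes (unadjusted p = 0.0354). Of the tested genes, 28 had a larger log2 fold change on the higher side. Without KO 2 the log2 fold change was 0.23 with an adjusted p of 0.751, and without KO 1 it was 0.46 with an adjusted p of 0.109 (edgeR). Over 15 other settings it was above 0 in 15, with an adjusted p between 0.109 and 0.942, and with DESeq2 the unadjusted p was 0.0631.

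Pdgfrb encodes the receptor for the PDGF-B chain, by which pericytes are drawn to vessels. Its probe was directed at transcript NM_008809.1 from base 1185. It had 61 and 63 counts in the KO samples, against 87 and 71 in the WT samples, and 65.2 and 60.0 after scaling in the KO samples, against 82.2 and 73.9 in the WT samples. The groups did not overlap, and the means were 62.6 ± 3.72 in the KO group, against 78.0 ± 5.88 in the WT group (SD, n = 2 each). On the log2 scale the fold change was -0.32 ± 0.25 (SE), with an adjusted p of 0.675 by edgeR across all tested genes (unadjusted p = 0.242). Its 95% interval, -0.92 to 0.28, holds no change as well as a 1.21-fold increase. With scaling to the positive controls the groups overlapped, and the log2 fold change was -0.19.

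**Figure D3:**
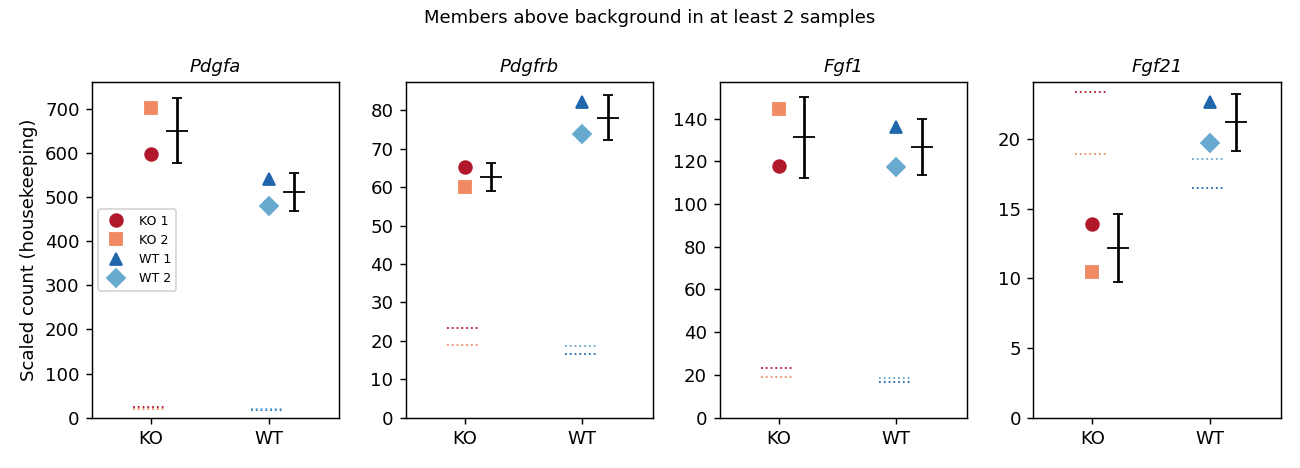
Scaled counts of the 4 tested members in KO and WT samples, 1 panel a gene with its own axis from 0. Black bars are the mean ± SD (n = 2 per group) and dotted lines the scaled background limit of each sample: Fgf21 lies under the limit in both KO samples, and Pdgfa, Pdgfrb and Fgf1 far above it in all 4.

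Fibroblast and pericyte genes bear on the PDGF receptors, since such cells share the CD45- gate. Of 11 fixed fibroblast markers 5 were measured, and their summed scaled counts were 216 and 78.0 in the KO samples, against 169 and 397 in the WT samples, so that the groups overlapped. Col1a1 had scaled counts of 57.7 and 12.4 in the KO samples, against 28.3 and 112 in the WT samples, and Col3a1 of 88.7 and 16.2 in the KO samples, against 68.0 and 162 in the WT samples. All 5 were highest in WT 2, and Col1a1, Col1a2 and Col3a1 were lowest in KO 2, where they were below background. Col5a1 varied little, with scaled counts of 24.6 and 25.7 in the KO samples, against 23.6 and 29.1 in the WT samples. Pdgfrb was highest in WT 1, and its KO samples were close to each other. All 4 tested fibroblast markers had lower means in KO samples. Their median log2 fold change was -0.94, beside -0.08 for all tested genes, with none at an unadjusted p under 0.05 (edgeR). Col1a2, Col1a1 and Col3a1 were at -0.86, -1.01 and -1.15, and Col5a1 was at -0.06. With TMM factors, DESeq2 size factors or positive controls 3 of the 4 were lower. Pdgfra was below background in each sample, and so was Notch3, the 1 measured of 6 pericyte and smooth muscle markers, at 3 to 7 counts. Of 14 measured leukocyte markers, 10 were below background in each sample, and the 4 tested, Pik3cd, Plcg2, Runx1 and Il3ra, had lower means in KO samples. None of these was at an unadjusted p under 0.05 (edgeR), and scaled Runx1 and Il3ra overlapped between the groups. The part of these other cells in the PDGF receptor values was not tested.

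**Figure D4:**
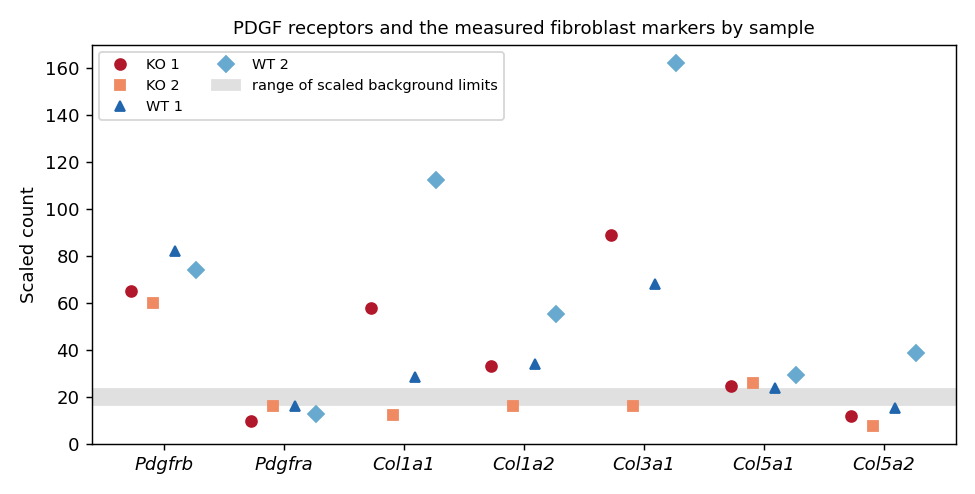
Scaled counts of the PDGF receptors and of the 5 measured fibroblast markers in each sample, with the grey band marking the range of scaled background limits. The collagens Col1a1 and Col3a1 spread from 12.4 to 112 and from 16.2 to 162 scaled counts. Col5a1 stays between 23.6 and 29.1, and Pdgfrb between 60.0 and 82.2.

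Fgf1, the acidic fibroblast growth factor, which binds all FGF receptors, was the 1 FGF ligand above background in every sample. Its probe was directed at transcript NM_010197.3 from base 680. It had 110 and 152 counts in the KO samples, against 144 and 113 in the WT samples, and scaled counts of 118 and 145 in the KO samples, against 136 and 118 in the WT samples. The groups overlapped almost fully, with means of 131 ± 19.1 in the KO group, against 127 ± 13.1 in the WT group (SD, n = 2 each). Their log2 fold change was 0.05 ± 0.21 (SE), with an adjusted p of 0.946 by edgeR across all tested genes (unadjusted p = 0.817). The 95% interval from -0.45 to 0.55 leaves room for a difference of up to 1.46-fold toward KO, so that no change is not shown. Without KO 2 or WT 2 the sign turned, to -0.11 and -0.05.

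Fgf21, a hormone-like FGF that is induced by nutrient and mitochondrial stress, had 13 and 11 counts in the KO samples, against 24 and 19 in the WT samples. Its probe was directed at transcript NM_020013.4 from base 440. Both KO samples lay under their limits of 21.9 and 19.9 counts, and both WT samples above theirs of 17.5 and 17.9. The limits themselves were higher in the KO samples: against the highest of the 4, an alternative chosen after seeing the data, WT 1 alone would have passed. Scaled counts were 13.9 and 10.5 in the KO samples, against 22.7 and 19.8 in the WT samples. This gave a log2 fold change of -0.80 ± 0.32 (SE; 95% interval -1.59 to -0.02), with an adjusted p of 0.569 by edgeR across all tested genes (unadjusted p = 0.0462). Since Fgf21 entered the test only through its WT counts, a lower KO value was built into its selection. In the fit without a filter its 95% interval was -1.78 to 0.17, which holds no change. The mean of the WT samples, 21.2 scaled counts, was equal to the mean scaled limit of the KO samples, 21.2, which leaves no fold change beyond background to state. Summed over the samples of a group, Fgf21 had 24 counts in KO, with an exact Poisson 95% interval from 15.4 to 35.7, and 43 in WT, from 31.1 to 57.9. These intervals cover counting error only, and their overlap is not a test of the difference. With the deposited signal, in which both KO values are at the floor of 17, the log2 fold change was -0.21.

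Genes downstream of these receptors were above background where the FGF receptors were not. Of 35 fixed adaptors, kinases and other signaling genes of FGF and PDGF receptors 26 were measured, and all 26 were tested. They had a median log2 fold change of -0.08, equal to that of all tested genes, with 9 higher and 17 lower in KO samples. Under positive control scaling 15 were higher and 11 lower. None passed the adjusted threshold, and 2 were at an unadjusted p under 0.05, both lower. These were Pik3r3, a regulatory subunit of PI3 kinase, with a log2 fold change of -0.73, and Jak2, a kinase of cytokine receptors, with scaled counts of 503 and 551 in the KO samples, against 635 and 771 in the WT samples (edgeR, adjusted p = 0.415 and 0.538). Pik3cb, a catalytic subunit of PI3 kinase, had scaled counts of 588 and 514 in the KO samples, against 653 and 645 in the WT samples.

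Of 17 fixed target and feedback genes 12 were measured and tested, with 7 higher and 5 lower in KO samples, 9 and 3 with TMM factors, and a median log2 fold change of 0.11. One, Etv4, an ETS factor that FGF signaling induces in the embryo, was at an unadjusted p under 0.05, higher, with scaled counts of 141 and 246 in the KO samples, against 111 and 80.1 in the WT samples (edgeR, adjusted p = 0.538). The feedback genes next in order of p lay on both sides. Dusp6, a phosphatase that acts on ERK, had scaled counts of 3339 and 3306 in the KO samples, against 3733 and 4239 in the WT samples, and Spry2, an inhibitor of receptor signaling, of 484 and 709 in the KO samples, against 426 and 467 in the WT samples. Ccnd1, the cyclin of the G1 phase, had scaled counts of 3322 and 4938 in the KO samples, against 2720 and 3219 in the WT samples. KO 2 had the highest Etv4, Spry2 and Ccnd1 of the 4 samples, as it had the highest Pdgfa and Fgf1, but the lowest Dusp6. KO 2 also stood apart over all tested genes, and a link between these genes was not tested. Of 6 fixed cofactor genes 1 was measured, the glypican Gpc4, with 1 to 8 counts and below background in each sample.

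**Figure D5:**
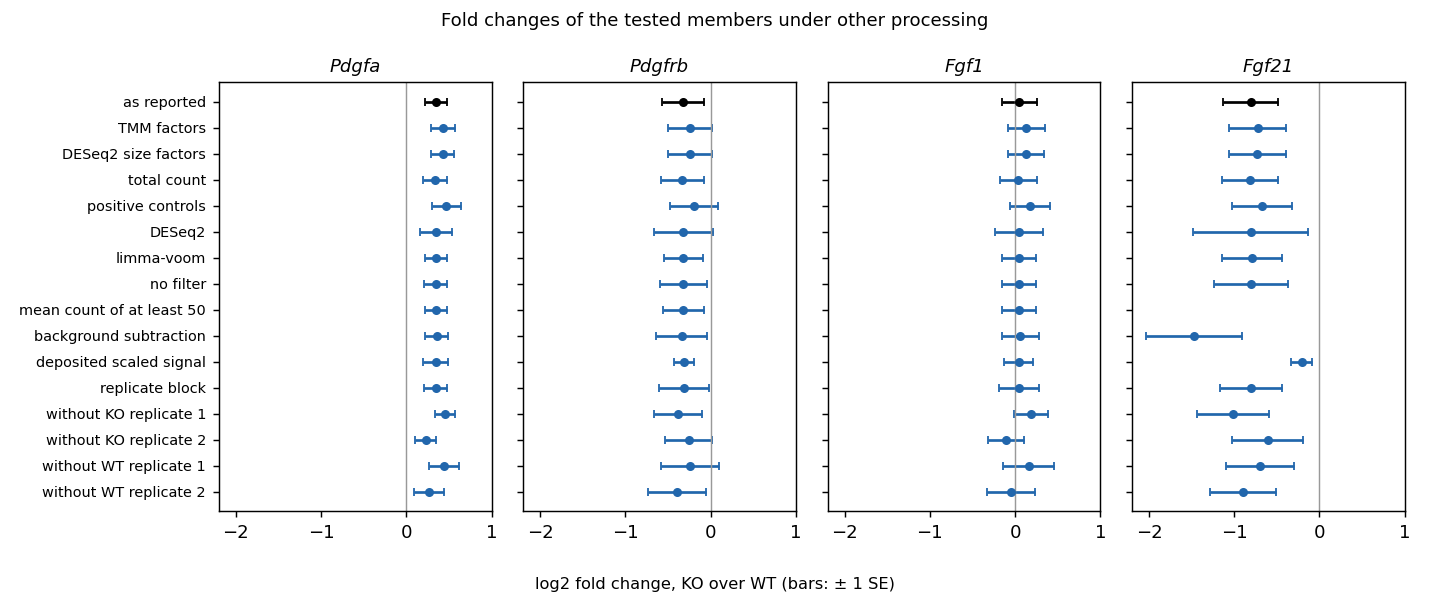
Log2 fold change, KO over WT, ± 1 SE of the 4 tested members as reported and under each other scaling, tool, filter and left-out sample. Pdgfa stays between 0.23 and 0.47 and Pdgfrb between -0.39 and -0.19, Fgf1 lies on either side of 0, and Fgf21, which the filter on a mean count of 50 leaves out, spans -1.47 to -0.21.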

How the data were processed

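The authors sorted live CD45- cells and ran 100 ng of total RNA per sample on an nCounter Flex System. Raw counts per probe were deposited for 4 samples, 2 per genotype. The deposited signal is these counts times a factor for each sample, with a floor of 17 under low values; the origin of the factors is not given in the sources. The deposited share of samples above a threshold was not used. Groups and sample numbers came from the labels, which do not state that each sample is a separate animal, so that p-values measure only sample-to-sample spread, which may be technical. No samples were merged, since every pair differed beyond counting noise (chi-square of 12.8 or more per degree of freedom).

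Scaling used the 20 housekeeping probes (geometric mean), all with a mean count of at least 100 (factors 0.935 to 1.06). The 446 genes above background (negative control mean plus 2 SD) in at least 2 samples were tested on the deposited counts across all genes with edgeR 4.0.16 (glmQLFit, glmQLFTest, 2 residual degrees of freedom, genotype alone; two-sided), Benjamini-Hochberg adjusted at 0.05, in R 4.3.3. This test was tried on simulated data. Alternatives were other scalings, DESeq2 1.42.0, limma-voom (limma 3.58.1), other filters, background subtraction, the deposited signal as log2 with a pseudocount of 1, a replicate block and leaving out each sample. All 32 members matched a RefSeq entry of GRCm38.p6 by accession; no genome build is named for the panel. The members and the lists were chosen with earlier results of these data known. The text names all members, with values in every sample for those above background in at least 1, and of each other list at most the 4 tested genes of lowest p, plus markers that bear on a member. One gene that this rule names is not reported here.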

Additional observations from a re-analysis of the deposited data

How the results depend on the processing

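No member passed the adjusted threshold under any of the 15 alternatives. Over all tested genes the count past it, 0 as reported, was 3 with DESeq2, 1 with the replicate block and 0 to 20 with 1 sample left out, the 20 without KO 1. The numbers of the samples were not taken to pair them: across genes, the deviations of samples with 1 number had a correlation of 0.040, and with the replicate block Pdgfa had a log2 fold change of 0.35 (edgeR, adjusted p = 0.405). The 2 members at an unadjusted p under 0.05 became 1 with TMM factors, DESeq2 size factors, positive controls, limma-voom, a mean count of at least 50 or the replicate block, 0 with DESeq2 or the deposited signal, and 0 to 1 with 1 sample left out; a lone sample was assumed to vary like the other group. Without a filter there were 2, Pdgfa and Fgf18, and all counts of Fgf18 were below background. The median log2 fold change of the members was -0.010 with positive controls, which moved the median of all tested genes to 0.05, and 0.050 with the mean count filter, which leaves out Fgf21. Fgf1 turned to -0.11 without KO 2 and -0.05 without WT 2, within -0.11 to 0.19 over the samples left out. Members with both KO samples below both WT samples were 1 in place of 2 with positive controls. Members above background in at least 2 samples stayed at 3 to 5 under other limits. Counting error limits Fgf21 and the members below background.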
